A study of Mus musculus with 2 samples.

Results

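The CD28 and B7 family costimulation genes were followed as 8 symbols defined by family membership. The rule uses no measured value, but the family was chosen with earlier results of these data known. The receptors were Cd28 and Icos, and the ligands were Icosl, Cd80, Cd86, Cd274, Pdcd1lg2 and Cd276. All 8 were found among the 24346 symbols listed in each of the 2 libraries. The libraries came from FDG mice (genotype Foxp3-DTR-GFP), in which GFP and the diphtheria toxin receptor are driven from the endogenous Foxp3 locus. All mice were 10 to 16 weeks old and had received 50 μg of bleomycin (BLM) into the trachea, and GFP+CD4+ cells were sorted on day 15 from spleen for the splenic library and from lung for the lung library. Each library pooled the cells of 3 mice, so differences between mice were averaged within it and could not be measured. Whether both tissues came from the same mice is not given in the sources used here. Both groups carried the reporter and received BLM, so the comparison is between tissues, and no library of untreated mice was analysed here.

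CD28 gives T cells the second signal that accompanies the T cell receptor, and it binds CD80 and CD86 on antigen-presenting cells. CTLA4, which Tregs express constitutively, binds the same ligands with higher affinity and can remove them from neighbouring cells. ICOS is an inducible relative of CD28 that binds ICOSL and is prominent on effector Tregs, whereas CD274 (PD-L1) and PDCD1LG2 (PD-L2) engage the inhibitory receptor PD-1. CD276 (B7-H3) is a B7 family protein found mostly on non-lymphoid cells.

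The deposited values are FPKM, a fragment count divided by transcript length and by a library size, so levels can be set side by side between genes. How that size was scaled between the libraries is not given in the sources used here. The FPKM of all symbols summed to 599633 for spleen and to 808853 for lung, and the libraries rested on an estimated 9.86e+06 and 1.29e+07 reads over genes with a known length. Each tissue had 1 library, so differences could not be checked against replicates and were not tested. The intervals below are exact 95% intervals on estimated reads and cover counting error only, since amplified copies of one molecule are counted separately. In all, 12094 genes reached 1 FPKM in at least one library. With FPKM under 0.1 set to 0.1, the lung value exceeded the splenic value by over 2-fold for 17.8% of them, and 15.5% differed by over 2-fold in the other direction.

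Of the 8 genes, 7 were at 1 FPKM or more in both libraries and Cd276 was at 0 in both. The ratio of lung to spleen exceeded 2-fold for 3 of the 7, namely Icos, Cd80 and Pdcd1lg2, against the 17.8% of all genes given above. Only Icos had a counting interval wholly above 2-fold, and it alone remained over 2-fold after rescaling to TPM, to equal upper quartiles or to equal estimated reads, or with a pseudocount of 1 FPKM. With these settings 13.1%, 15.3%, 15.1% and 14.6% of all genes were over 2-fold higher, so 1 of 7 was near that share. None of the 7 was over 2-fold lower, against 15.5% of all genes. The other 4, Cd28, Cd86, Cd274 and Icosl, lay within 2-fold, and rescaling to TPM turned the direction of Cd28, Cd86 and Cd274 from higher to lower. The median log2 ratio of the 7 genes was 0.43, beside 0.03 over the 12094 genes. In these bulk libraries, fewer cells that express a gene and less RNA of it per cell cannot be told apart.

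**Figure D1:**
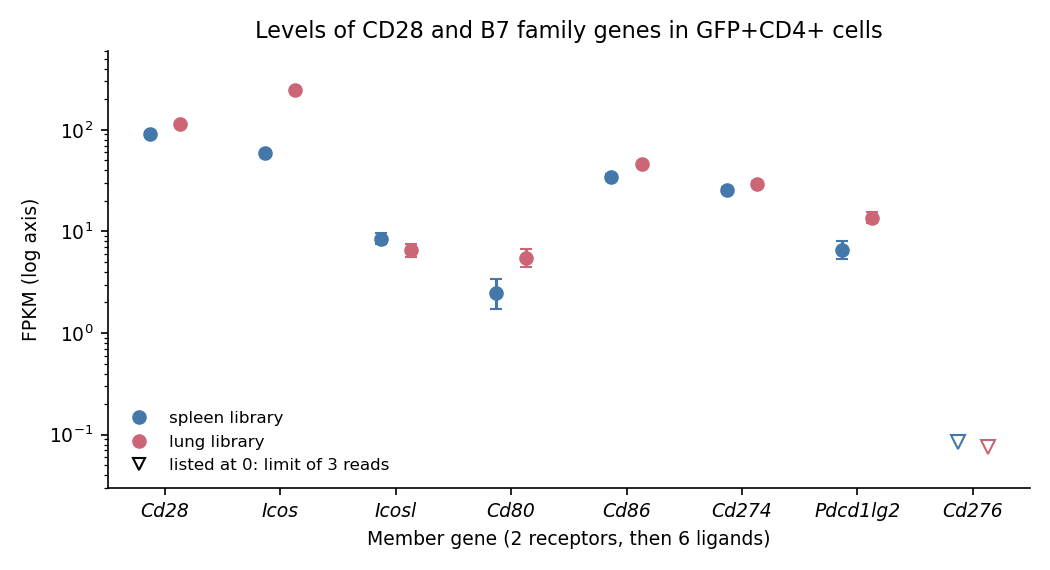
FPKM of the 8 genes (log axis) for spleen (blue) and lung (red), 1 point per library, with bars for the exact 95% counting interval and open triangles for the limit of 3 reads where a gene is listed at 0. Icos lay under Cd28 in spleen (59.2 against 91.9 FPKM) and over it in lung (248 against 114 FPKM).

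With the deposited values, Cd28 was the most highly expressed of the 8 genes in spleen and Icos in lung. Cd28 was listed at 91.9 FPKM in spleen and at 114 FPKM in lung, a 1.24-fold higher value with an interval of 1.19 to 1.29. Icos was listed at 59.2 FPKM in spleen and at 248 FPKM in lung, a 4.18-fold higher value with an interval of 3.98 to 4.40. The Icos values rested on about 1862 reads in spleen and 8844 in lung, so counting error was small beside the difference. Among the listed symbols Icos stood at rank 1739 in spleen and 504 in lung, and Cd28 at 1079 and 1060. The ratio of Icos was higher than that of 90.2% of the 12094 genes, and that of Cd28 was higher than 62.4%. Among the 1309 genes with 100 FPKM or more in the higher library, where both receptors lie, 17.1% were over 2-fold higher in lung.

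The ratio of Icos to Cd28 within a library does not change with the scaling between libraries. It was 0.644 in spleen, with an interval of 0.610 to 0.681, and 2.17 in lung, with an interval of 2.103 to 2.25. Relative to Cd28, Icos was thus 3.37 times as high in lung as in spleen. Its order against Cd28 in spleen rested on the transcript length assigned to Icos. With the median length of all protein-coding transcripts in place of that of the RefSeq transcript, the ratios were 1.08 in spleen and 3.63 in lung. Ctla4 also stood higher against Cd28 in lung, at 5.28 times its level, than in spleen, at 2.40 times.

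The 3 receptor genes lie side by side on the plus strand of chromosome 1 of GRCm38 (mm10). Cd28 (ENSMUSG00000026012.2) spans 60716800 to 60773359 and Icos (ENSMUSG00000026009.14) spans 60977927 to 61000320, with Ctla4 between them. From the end of Cd28 to the start of Ctla4 there are 114 kb, and from the end of Ctla4 to the start of Icos 62.1 kb. CD28 and ICOS each signal from a short tyrosine motif in the cytoplasmic tail that recruits phosphoinositide 3-kinase. The tail of CTLA4 holds a motif of like form. The coding stretches around the motif, read from GENCODE M21 transcripts, are shown because they set Icos, the receptor with the largest ratio of the 8 genes, beside its neighbours, with the 4 motif codons in capitals.
Cd28: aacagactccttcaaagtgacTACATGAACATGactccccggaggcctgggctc
Icos: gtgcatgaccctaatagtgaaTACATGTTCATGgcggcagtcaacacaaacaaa
Ctla4: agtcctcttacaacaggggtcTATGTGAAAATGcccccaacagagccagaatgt
The capitals encode YMNM in Cd28 (exon 4 of 4, chr1:60769672-60769725), YMFM in Icos (exon 4 of 5, chr1:60995539-60995592) and YVKM in Ctla4 (exon 4 of 4, chr1:60914625-60914678), where each interval is that of the 54 bases printed. In YMNM the asparagine also allows binding of the adaptor Grb2, a contact that ICOS lacks.

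**Figure D2:**
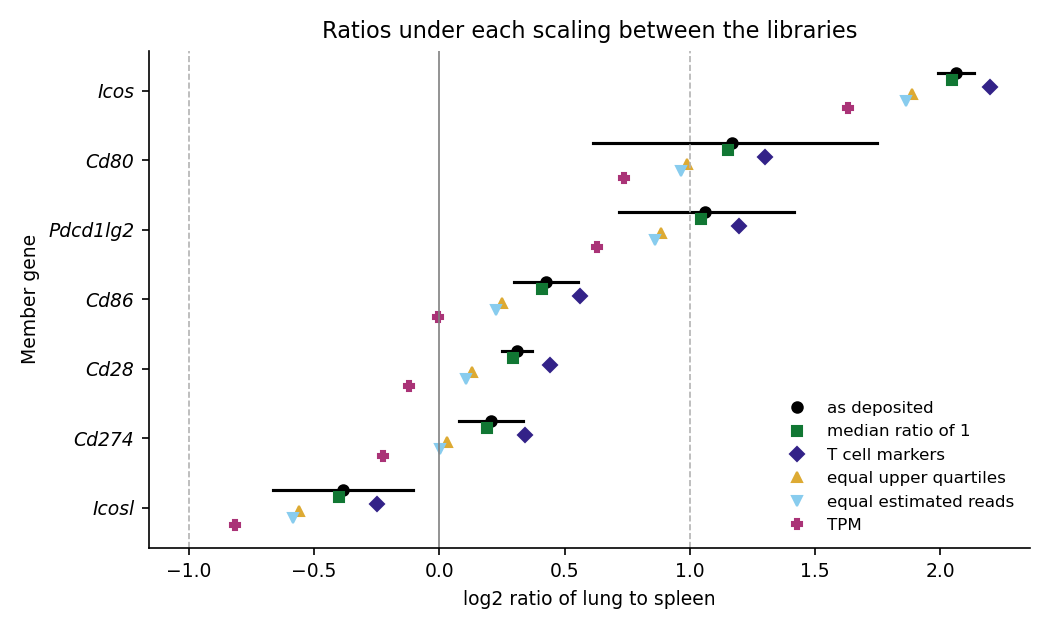
log2 ratio of lung to spleen for the 7 measured genes, with the deposited FPKM (black, bar for the exact 95% counting interval) and after 5 ways of rescaling the libraries (coloured symbols). Dashed lines mark 2-fold, which Icos passed under every scaling shown, whereas Cd80 and Pdcd1lg2 passed it with the deposited values, the median ratio of 1 and the T cell markers only.

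Of the ligands that CD28 and CTLA4 share, Cd86 was the more abundant in both libraries and Cd80 differed more between them. Cd80 (chromosome 16, 38455561 to 38496335, plus strand) was listed at 2.46 FPKM in spleen and at 5.52 FPKM in lung, a 2.25-fold higher value. With about 38.0 reads in spleen and 97.0 in lung its interval ran from 1.53 to 3.36, so that counting error alone spans the 2-fold line. Cd86 (chromosome 16, 36603869 to 36666081, minus strand) was listed at 34.1 FPKM in spleen and at 45.9 FPKM in lung, a 1.34-fold higher value with an interval of 1.23 to 1.47. Cd86 thus remained the main transcript of the pair, at 13.9 times the level of Cd80 in spleen (interval 10.04 to 19.8) and 8.31 times in lung (interval 6.75 to 10.3). Among the 4815 genes with 1 to 10 FPKM in the higher library, where Cd80 lies, 27% were over 2-fold higher in lung.

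The summed level of Cd80 and Cd86 was 36.6 FPKM in spleen and 51.4 FPKM in lung. Set against Cd28, this sum was 0.398 in spleen and 0.451 in lung, with intervals of 0.370 to 0.429 and 0.425 to 0.479. Set against Ctla4 it was 0.166 in spleen and 0.0855 in lung, because Ctla4 was listed at 221 FPKM in spleen and at 601 FPKM in lung. The shared ligands thus had similar levels relative to the activating receptor in both tissues, and a lower level relative to the inhibitory one in lung.

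Both ligands of PD-1 were present, with Cd274 above Pdcd1lg2 in each library. Cd274 (PD-L1) was listed at 25.5 FPKM in spleen and at 29.4 FPKM in lung, a 1.15-fold higher value with an interval of 1.06 to 1.26. Pdcd1lg2 (PD-L2) was listed at 6.56 FPKM in spleen and at 13.7 FPKM in lung, a 2.09-fold higher value with an interval of 1.64 to 2.67. The intervals of the 2 ratios did not overlap, although the genes are neighbours. The level of Cd274 was 3.89 times that of Pdcd1lg2 in spleen (interval 3.15 to 4.84) and 2.15 times in lung (interval 1.86 to 2.48). Among the 5970 genes with 10 to 100 FPKM in the higher library, where both lie, 10.5% were over 2-fold higher in lung. Pdcd1, which encodes PD-1 itself, was at 73.2 FPKM in spleen and 378 FPKM in lung, so the summed ligands stood at 0.438 of the receptor's level in spleen and at 0.114 in lung. Exons of Cd274 overlap those of an annotated gene on the opposite strand, AC119228.1, and the library kit does not mark strand, so their reads cannot be told apart.

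On chromosome 19, Cd274 (29367455 to 29388095) and Pdcd1lg2 (29410919 to 29471161) lie in the same orientation with 22.8 kb between them. RefSeq promoter windows of GRCm38.p6, mostly of sequence before the annotated start of transcription, were available for 5 of the 8 genes (Icosl, Cd80, Cd274, Pdcd1lg2 and Cd276) but not for Cd28, Icos and Cd86. The windows of Cd80, Cd274 and Pdcd1lg2 are printed because Cd80 and Pdcd1lg2 were the ligands over 2-fold higher in lung and Cd274 is the neighbour that was not. All are on the plus strand, and capitals mark matches on either strand to the motifs of AP-1 (TGANTCA), STAT factors (TTCNNNGAA), interferon regulatory factors (GAAANNGAA) and NF-kappaB (its consensus).
Cd80: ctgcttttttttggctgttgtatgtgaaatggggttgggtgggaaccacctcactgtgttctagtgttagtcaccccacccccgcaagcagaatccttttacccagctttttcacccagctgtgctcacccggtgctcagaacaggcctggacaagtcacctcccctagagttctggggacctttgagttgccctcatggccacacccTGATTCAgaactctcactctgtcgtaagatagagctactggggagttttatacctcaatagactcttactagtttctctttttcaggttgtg
Cd274: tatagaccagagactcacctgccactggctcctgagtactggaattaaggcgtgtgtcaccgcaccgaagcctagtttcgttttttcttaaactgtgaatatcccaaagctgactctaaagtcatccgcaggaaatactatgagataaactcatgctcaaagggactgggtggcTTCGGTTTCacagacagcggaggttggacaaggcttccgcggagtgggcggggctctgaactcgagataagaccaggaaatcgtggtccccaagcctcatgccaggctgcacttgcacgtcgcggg
Pdcd1lg2: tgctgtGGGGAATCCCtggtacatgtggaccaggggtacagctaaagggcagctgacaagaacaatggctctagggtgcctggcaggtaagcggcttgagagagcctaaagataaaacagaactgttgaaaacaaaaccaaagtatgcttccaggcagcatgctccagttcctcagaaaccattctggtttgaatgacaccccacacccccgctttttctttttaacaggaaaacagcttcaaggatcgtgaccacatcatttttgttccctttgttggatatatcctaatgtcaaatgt
These windows are chr16:38458683-38458982, chr19:29367188-29367487 and chr19:29410669-29410968. The RefSeq start of Cd80 lies downstream of the GENCODE gene start given above, so its window is inside that span. The window held an AP-1 match starting 42 bases before the RefSeq start, as did 7.81% of the 32851 windows in the RefSeq table. An NF-kappaB match, found in 8.46% of windows, started 244 bases before the start of Pdcd1lg2 and 111 bases before that of Icosl, which was lower in lung. The Cd274 window held an interferon regulatory factor match 76 bases before the start, found in 8.56%. The STAT motif was in none of the 5 members' windows and in 8.30% of all windows. A match is a run of letters only, and binding was not measured.

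Icosl, the ligand of ICOS, was the only measured gene of the 8 that was lower in lung with the deposited values. It lies on chromosome 10 (78069302 to 78083913, plus strand) and was listed at 8.51 FPKM in spleen and at 6.52 FPKM in lung, a 1.30-fold lower value with an interval of 1.07 to 1.58. Its ratio remained under 1 with all 11 settings tried. The receptor and its ligand thus differed between tissues in opposite directions, and Icosl went from 0.144 of the level of Icos in spleen to 0.0263 in lung. Most of that difference lay in Icos, since Icosl itself was within 2-fold. With the other transcript lengths given above, the ratio of Icosl to Icos was 0.110 in spleen and 0.0201 in lung.

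Cd276 (chromosome 9, 58524298 to 58555437, minus strand) was listed at 0 in both libraries. A count of 0 allows up to 3 reads, which is 0.0852 FPKM in spleen and 0.0751 FPKM in lung. Its exons overlap those of Gm10657 on the opposite strand, and how the authors' counting assigned reads there is not given in the sources used here. If the listed 0 is a true count of its reads, Cd276 was under the level of every other gene of the 8 by a wide margin. The lowest of those was Cd80 in spleen at 2.46 FPKM. Vtcn1 (B7-H4), another B7 gene of non-lymphoid cells, was likewise listed at 0 in both libraries.

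**Figure D3:**
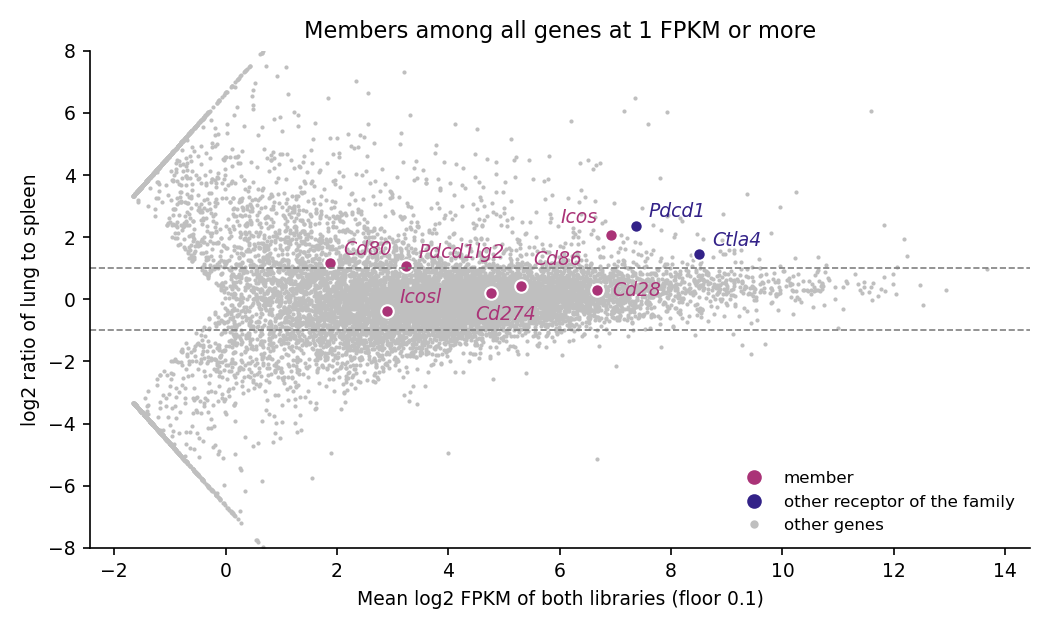
log2 ratio of lung to spleen against mean log2 FPKM for the genes that reached 1 FPKM in either library (grey), with the 7 measured genes in purple and the receptors Ctla4 and Pdcd1 in blue. 90 of the 12094 genes lie beyond the plotted range of 8, and Icos stands above the dashed 2-fold line with Ctla4 and Pdcd1 while Cd28, Cd86, Cd274 and Icosl lie between the dashed lines.

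With the deposited values, the order of levels in spleen was Cd28, Icos, Cd86, Cd274, Icosl, Pdcd1lg2, Cd80 and Cd276. In lung it was Icos, Cd28, Cd86, Cd274, Pdcd1lg2, Icosl, Cd80 and Cd276. Receptors stood above ligands in both. With the other transcript lengths given above, Icos stood over Cd28 in spleen, at 1.08 times its level. Counting intervals of neighbours overlapped only for Icosl and Pdcd1lg2 in spleen (7.45 to 9.69 and 5.33 to 7.997 FPKM) and for Icosl and Cd80 in lung (5.65 to 7.49 and 4.48 to 6.74 FPKM). For each measured gene the 3 symbols nearest in level, by Euclidean distance of log2 FPKM over the 2 libraries, were also looked up. Those nearest to Icos were Ccr8 (67.2 FPKM in spleen and 280.0 in lung), Tgif1 (61.2 and 198) and Glrx (74.1 and 268), at distances of 0.25 to 0.34. For 5 of the other genes the nearest symbols were closer, at distances of 0.0097 to 0.046, with BC031181, Ergic3 and Ptpn18 for Cd28, Pbxip1, Wbscr22 and Cirh1a for Cd86, and Itpk1, Cab39l and 2700062C07Rik for Cd274. Klrd1, Cenpl and Dkkl1 were nearest to Pdcd1lg2, and Cep250, Ndst1 and 2310035C23Rik to Icosl. With 2 libraries such likeness is a match of a pair of values and no more.

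Other genes of these pathways, 51 in a fixed list, mostly lay within 2-fold. Of the 50 that were listed, 46 reached 1 FPKM in at least one library, and 4 were over 2-fold higher in lung, 4 over 2-fold lower and 38 within 2-fold. These shares were below those of all genes in both directions, 17.8% and 15.5%, and the median log2 ratio was -0.18. Among the 5970 genes with 10 to 100 FPKM in the higher library, where many of the 46 lie, the shares were 10.5% and 10.4%. The difference from all genes therefore cannot be told apart from one of expression level. With TPM, 3 of the 46 were over 2-fold higher and 11 lower, beside 13.1% and 25.9% of all genes. Higher were the receptors Pdcd1 (5.17-fold) and Ctla4 (2.72-fold), March8, a ubiquitin ligase that removes CD86 and other membrane proteins (0.260 FPKM in spleen and 1.58 in lung), and Pdpk1, the kinase that activates Akt (15.4 and 31.7). Lower were 3 catalytic subunits of phosphoinositide 3-kinase, Pik3cb (3.43 FPKM in spleen and 0.640 in lung), Pik3cd (94.1 and 37.5) and Pik3ca (8.88 and 4.19), and Myc, a transcription factor of growth (80.3 and 38.1). Of the 20 genes of proximal signalling, 14 were lower and 6 higher, with 16 within 2-fold. The proximal signalling group had a median log2 ratio of -0.34, beside 0.03 over the 12094 genes and -0.07 over 8 T cell markers. Its most highly expressed gene was Lck, the kinase that starts T cell receptor signalling (823 FPKM in spleen and 654 in lung), which lay within 2-fold. Ptpn6, a phosphatase of inhibitory receptors (211 and 150), also lay within 2-fold.

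**Figure D4:**
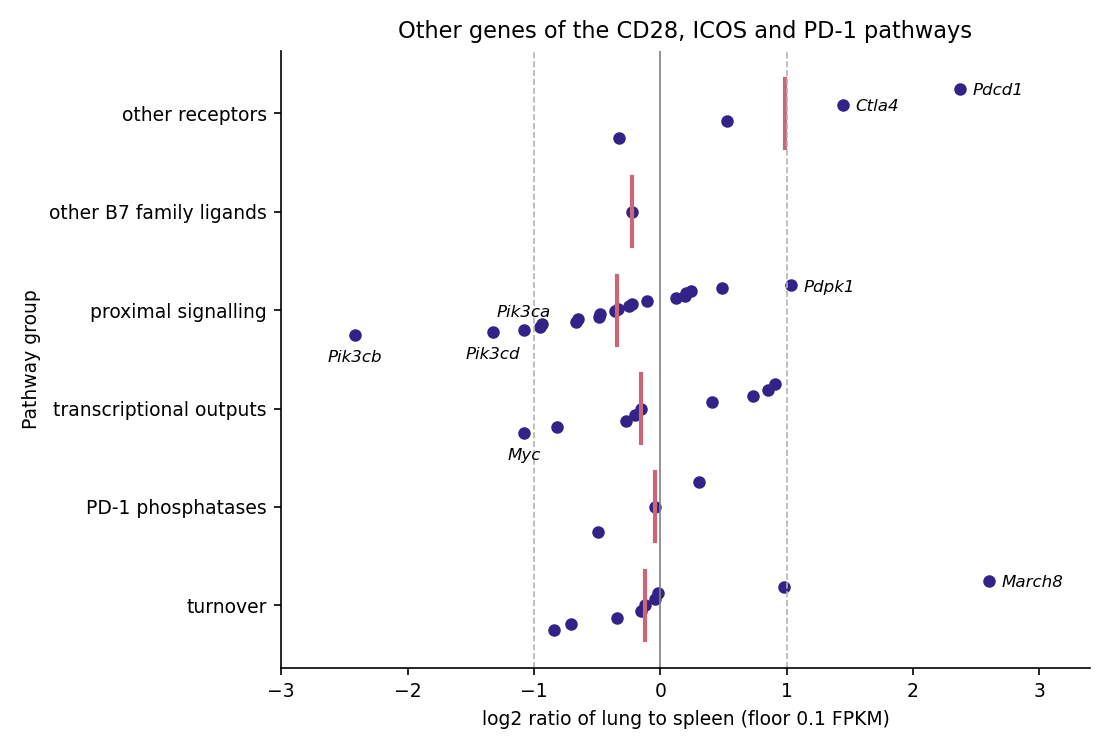
log2 ratio of lung to spleen for the 46 pathway genes that reached 1 FPKM in either library, 1 point per gene, by group, with red bars for group medians and dashed lines at 2-fold. The 8 named genes lie beyond 2-fold, and 14 of the 20 proximal signalling genes lie left of 0, with 16 of the 20 within 2-fold.

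The B7 ligands are also genes of antigen-presenting cells, so marker genes of other cell types are given beside them. Counts of markers past 2-fold can be set beside the 17.8% of all genes higher in lung and the 15.5% lower. T cell markers were nearly level, with all 8 listed genes within 2-fold and summed levels of 4353 FPKM in spleen and 4215 FPKM in lung. Of 8 Treg markers, 4 were higher in lung and 4 lower. Over 2-fold higher were 3, among them Foxp3 (18.7 FPKM in spleen and 41.8 in lung) and Ctla4, given above, and 1 was over 2-fold lower, Lrrc32 (69.4 and 30.4). Il2ra was lower within 2-fold (89.4 and 59.1). Foxp3 and Cd4, which the sort relied on through the reporter and the surface protein, were thus present in both libraries.

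B cells express Icosl, Cd80 and Cd86, and 7 of 7 measured B cell markers were lower in lung, 4 of them over 2-fold. Their sum was 290 FPKM in spleen and 143 FPKM in lung, with Cd79a at 80.4 and 30.4 FPKM and none at 0. Icosl was lower in lung as well, whereas Cd80 and Cd86 were higher with the deposited values. Macrophages express Cd80, Cd86, Cd274 and Pdcd1lg2. With the deposited values 10 of 10 macrophage markers were higher in lung, 7 of them over 2-fold. Their sum was 505 FPKM in spleen and 25715 FPKM in lung, mostly from Lyz2, while Csf1r was at 43.8 and 50.1 FPKM and none was at 0. Dendritic cell markers were mixed, with 3 of 7 over 2-fold higher, among them Itgax (1.36 and 24.1 FPKM), 1 over 2-fold lower, Clec9a at 0 in lung and sums of 324 and 416 FPKM. Most of these sums was Ccr7, which T cells also express (311 and 361 FPKM), and without it they were 13.3 and 55.2 FPKM. The part of these cells in the levels of the ligand genes was not tested.

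Among the other lists, neutrophil markers had sums of 424 (spleen) and 1205 FPKM (lung), with 4 of 5 over 2-fold higher. Fibroblast markers summed to 0.290 and 47.2 FPKM, with 3 of 6 at 0 in spleen, and epithelial markers to 10.97 and 3128 FPKM, with 2 of 6 at 0 in spleen. Endothelial markers summed to 55.0 and 38.8 FPKM, mostly from Pecam1 (54.8 and 31.7 FPKM), with 3 of 6 at 0 in spleen and 2 in lung. Of the 2 that reached 1 FPKM, Pecam1 was lower in lung within 2-fold and Cldn5 was over 2-fold higher (0.160 and 6.54 FPKM). Cd276, a gene of such stromal and epithelial cells, was listed at 0 in lung. How reads in its overlapping exons were assigned is not known, as stated above. The part of these cells in the level of Cd276 was not tested.

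**Figure D5:**
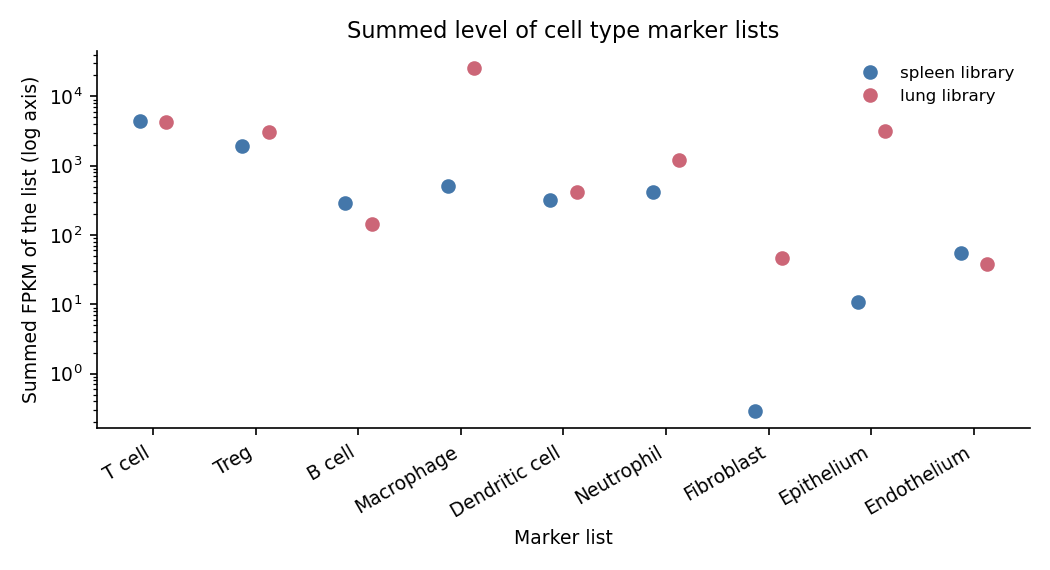
Summed FPKM of each marker list (log axis) for spleen (blue) and lung (red), 1 point per library. T cell markers were level at 4353 and 4215 FPKM, B cell markers were lower in lung and macrophage markers were at 505 and 25715 FPKM.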

How the data were processed

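RNA of sorted GFP+CD4+ cells was made into cDNA with SMART-Seq HT and sequenced as single-end reads. Per the labels and the methods, mapping by the authors to mm10 used TopHat2 2.1.1, Bowtie2 2.2.8 and SAMtools 0.1.18, and they deposited FPKM calculated with Cuffdiff 2.2.1. The annotation and any scaling between libraries are not given in the sources used here.

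FPKM under 0.1 were set to 0.1 before ratios of lung to spleen were taken. Genes were counted past 2-fold where the higher library had at least 1 FPKM. Members and gene lists were chosen with earlier results of these data known. Named were all members, Ctla4, Pdcd1, pathway genes past 2-fold or most highly expressed, defining markers and the 3 nearest genes. The genes nearest to Cd80 and 1 marker are not reported here.

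Reads were estimated as FPKM times effective length of the RefSeq-tied GENCODE M21 transcript (23677 symbols, 97.3%), with fragments of mean 200 and SD 80 nt and at least 75 nt, divided by the value of 1 read. That value was the most frequent product among genes with a single RefSeq-tied length of at least 1500 nt. It was 0.0964 FPKM in spleen and 0.0849 FPKM in lung at 1 kb. Of such genes with 1 to 10 reads (1446 in spleen and 891 in lung), 74.3% and 76.7% lay within 0.1 of a whole number. The value of 1 read was taken from the same kind of genes, so this check is not independent of it. The interval of a ratio is the Clopper-Pearson interval of the lung share of reads, and that of a level is the exact Poisson interval. The steps were tested on simulated data. The software was Python 3.11.15 (scipy 1.17.1, pandas 2.3.3, numpy 2.4.6), with plots by matplotlib 3.10.9.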

Additional observations from a re-analysis of the deposited data

How the results depend on the processing

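The deposited FPKM had a median log2 ratio of 0.02 over genes at 1 FPKM or more in both libraries. Rescaling moved all log2 ratios by -0.43 (TPM), -0.18 (upper quartiles), -0.20 (equal estimated reads, chosen after seeing the data) or 0.13 (T cell markers), and TPM changed the share of all genes over 2-fold from 17.8% higher and 15.5% lower to 13.1% and 25.9%. The 3 of 7 genes over 2-fold higher became 1 of 7, Icos, with TPM, upper quartiles, equal estimated reads or a pseudocount of 1 FPKM. With these settings 13.1%, 15.3%, 15.1% and 14.6% of all genes were over 2-fold higher, so 1 of 7 was near that share. At a 4-fold threshold 1 gene, Icos, remained, and 0 at 20-fold, where the share of all genes was not computed for either threshold. Icos ranged from 1.63 to 2.198 and Icosl from -0.81 to -0.25 on the log2 scale. With TPM, Cd28, Cd86 and Cd274 changed direction, to -0.12, -0.0051 and -0.23. Of the 46 pathway genes, 8, 2 and 0 were higher by over 1.5-fold, 4-fold and 20-fold, and 11, 1 and 0 were lower. The share of all genes was taken at 2-fold only, so these counts cannot be read against it. With TPM, upper quartiles, equal estimated reads and T cell markers, 11, 7, 8 and 2 of the 46 were over 2-fold lower. The shares of all genes were 25.9%, 18.9%, 19.4% and 13.5%. No paired analysis was possible because each tissue has 1 library, which also prevents leaving one out. Cd80, at about 38.0 reads in spleen, is the least precise value.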
